A study of Mus musculus with 2 samples.

Results

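The villus-tip squares of an irradiated mouse intestine are described here, in a section labelled Dpf2 knockout. The section was divided into squares with a side of 10 position units, and a square was kept if its barcodes held at least 1000 counts. For each square the counts of Ada, Krt20 and Nt5e were added and divided by all counts of the square. The 414 squares in the top 5% by that share, of 8285 kept in that section and 13202 in both sections, are called the villus-tip squares. The other 7871 are called the remaining squares. Of these, the 1802 whose share of general enterocyte genes was at least the villus-tip median of 4.10% form a narrower comparison, called the remaining enterocyte-rich squares.

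The study is about DPF2, a subunit of the BAF chromatin remodelling complex, in the injury that radiation does to the gut. It holds 1 section from Dpf2 knockout mice and 1 from wild-type mice, both given 10 Gy of X-rays, and neither has a replicate or an unirradiated counterpart here. Frozen tissue cut at 10 µm was laid on an array of barcoded spots that records the position of each RNA molecule captured. How long after exposure the tissue was taken, from which stretch of intestine, which exons of Dpf2 were removed and in which cells, and what 1 position unit measures, are details that the labels do not state.

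The intestinal villus is a finger of absorptive tissue that is renewed from the crypts at its base. Enterocytes are born in the crypt, travel up the villus and are shed at the tip, and they change their work on the way. Cells low on the villus make antimicrobial lectins such as the Reg3 proteins, cells in the middle carry the main sugar and amino acid transporters, and cells at the tip turn on cell adhesion, lipoprotein and purine-handling genes. Adenosine deaminase (Ada) and the ecto-5′-nucleotidase CD73 (Nt5e) are purine enzymes of the tip, and keratin 20 (Krt20) is an intermediate filament protein of mature, soon to be shed cells.

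The section labelled Dpf2 knockout holds 88056 barcodes and 89754886 counts. A villus-tip square held 1117 to 31352 counts with a median of 10104, against a median of 10214 in the remaining squares, so depth was similar in both. The enterocyte-rich squares were deeper, with a median of 12663 counts, which bears on shares of squares with a count. A square is a small region that can hold several cells of different types. All squares come from 1 section and are not replicates, so no test was made and no p-value is given. Intervals are 95% intervals of counting error only, and the range over 4 position parts of the section, which hold 2000 to 2139 squares each, is the only spread shown. Of the barcode names, 45557 occur in both sections: 51.7% of those in the section labelled Dpf2 knockout and 89.4% of those in the section labelled wild type. They name array positions, not cells. Genes of chromosomes X and Y hold 0 counts and are not described. The section labelled wild type stood apart: its median share of general enterocyte genes was 0.0321% in its remaining squares, against 2.83% in the remaining squares of the section labelled Dpf2 knockout.

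Dpf2 itself (chromosome 19, 5896516 to 5912871 on GRCm38) was counted in both sections. It reached 18.2 CPM, from 79 counts, in the villus-tip squares of the section labelled Dpf2 knockout and 17.9 CPM, from 29 counts, in the squares chosen by the same rule in the section labelled wild type. CPM are counts of a gene per 1000000 counts of the squares summed. Dpf2 was thus no lower under the knockout label. The deleted stretch is not given, so these counts do not check the label. Within the section labelled knockout, Dpf2 was at 26.4 CPM in the remaining squares, a log2 ratio of -0.53 for the villus-tip squares, close to the median of all genes given below.

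The rule genes are described first, since their counts chose the squares. The summed share was 7756 CPM in the lowest villus-tip square, 10835 CPM in the median one and 32421 CPM in the highest, against a median of 1810 CPM in the remaining squares. The lowest square inside the threshold stood at 7756 CPM and the highest outside it at 7727 CPM; values run on across the threshold without a gap. Ada carried the choice: it made up 69.3% of the rule-gene counts in villus-tip squares, and 406 of the 414 had more Ada than Krt20. Every villus-tip square had counts of Ada and Krt20, while 220 of 414 had a count of Nt5e, against 17.1% of the remaining squares.

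Each rule gene was also read in squares that it had not helped to choose. When squares were taken by Krt20 and Nt5e alone, Ada reached 7093 CPM in the chosen squares against 1084 CPM in the others, a log2 ratio of 2.71. When Ada and Krt20 chose the squares, Nt5e stood at 155 CPM against 20.1 CPM, a log2 ratio of 2.95. Krt20 was the least separated, at 3356 CPM in squares chosen by Ada and Nt5e against 1145 CPM, a log2 ratio of 1.55. In a further reading, squares were chosen on even-numbered barcodes and read on odd-numbered ones. The log2 ratios were then 2.90 for Ada, 1.54 for Krt20 and 2.91 for Nt5e. Of the 414 squares chosen without Ada, 293 were villus-tip squares, as were 377 of those chosen without Krt20 and 410 of those chosen without Nt5e.

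The villus-tip squares formed bands. Of the 414, 88.6% touched another villus-tip square, while 12.2% of the remaining squares touched one. They formed 92 patches, of which the largest held 142 squares and 47 were single squares. They were unevenly spread over the section, with 43, 39, 182 and 150 squares in the 4 position parts, and parts 3 and 4 are the side of higher x. Values within each part are given for that reason.

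**Figure D1:**
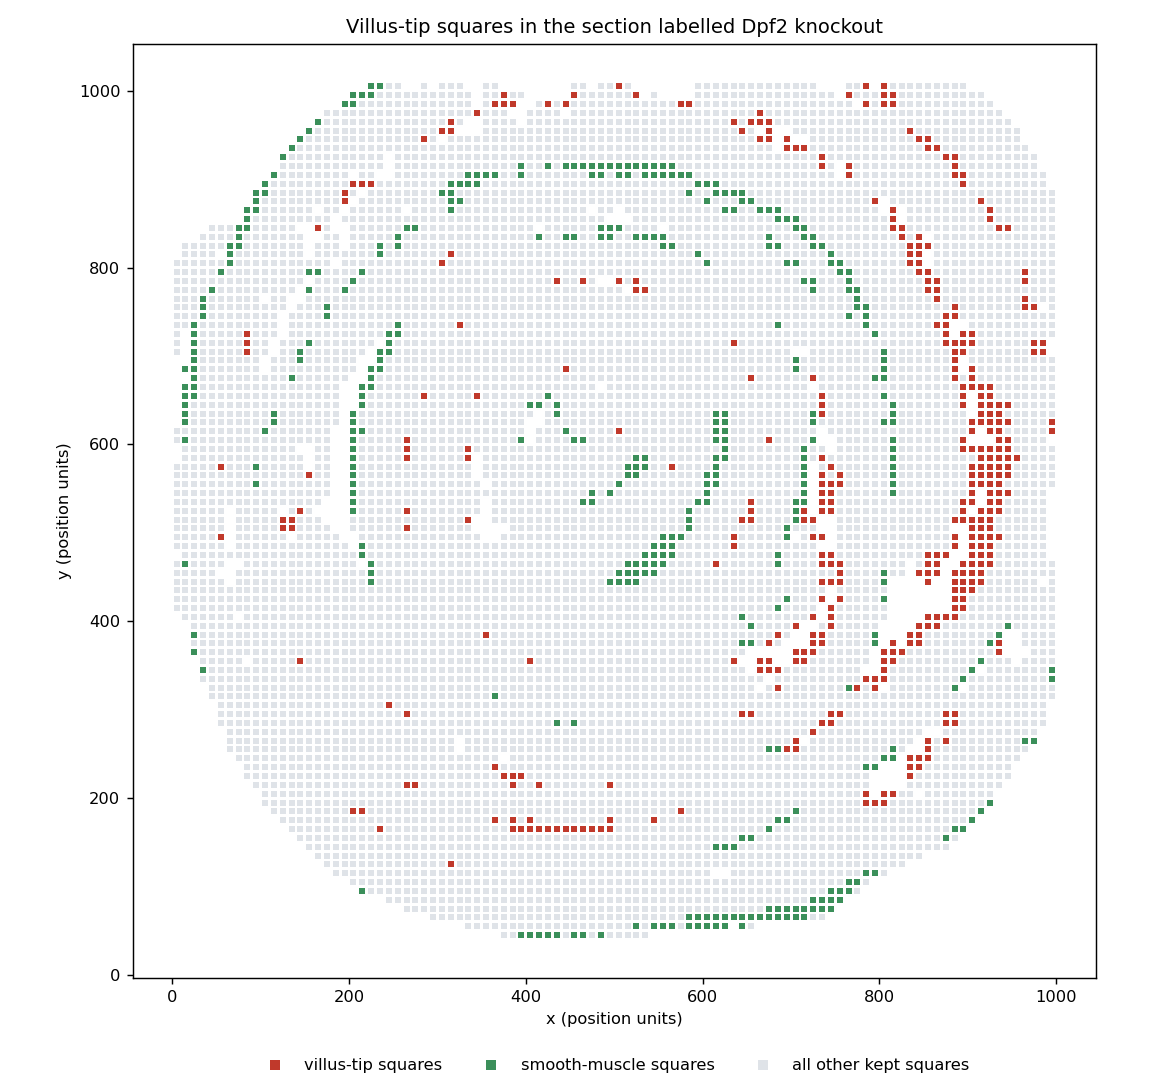
Map of the section labelled Dpf2 knockout, with x and y in position units; each symbol is 1 kept square of 10 units. The 414 villus-tip squares (red) form bands, the longest on the right, that run apart from the squares richest in smooth-muscle genes (green), and other kept squares are grey.

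Position was not used by the rule. Smooth muscle lies at the outer wall of the gut, Paneth cells and dividing cells at the base of the crypts, and the villus tip at the lumen. The median distance to the nearest of the 5% of squares richest in smooth-muscle genes was 72.8 units for villus-tip squares, 41.2 for remaining squares and 51.0 for remaining enterocyte-rich squares. The medians were 104, 58.3, 50 and 92.2 units for villus-tip squares in the 4 parts, against 70.7, 31.6, 36.1 and 50 for the remaining squares, so the villus-tip squares lay farther from muscle in each part. Distance to the squares richest in Paneth genes was 60.8 units against 31.6 in the remaining squares, and to those richest in proliferation genes 44.7 units against 28.3. In the opposite direction, the nearest grid square without any barcode, a gap in the tissue or its outer edge, was 20 units away from villus-tip squares and 44.7 from the remaining squares. Part 1 went the other way, at 70.7 units for villus-tip squares against 60.8. Apart from gaps in part 1, the chosen squares lay farther from muscle and crypt and nearer to open space in each part.

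A list of 10 genes known to be raised at the mouse villus tip and not used by the rule gave a check of the label. All 10 were higher in the villus-tip squares than in the remaining squares. Their median log2 ratio was 1.497, and 7 of them were at least 2-fold higher. Over all 13149 genes with 200 or more counts, 2.43% reached a ratio that high and the median log2 ratio was -0.50. Against the remaining enterocyte-rich squares, all 10 were again higher, with a median of 1.06 and 5 genes at least 2-fold higher, beside 1.89% of all genes and an all-gene median of -0.15. With the median gene set to 0, the list medians were 2.0 and 1.21. The list was chosen with earlier results of these data known, so the check is not independent of them. Within that limit, the data did not go against the label.

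Slc28a2, a concentrative transporter that takes up purine nucleosides, had the highest ratio over remaining squares of the 13149 genes. It lies on chromosome 2 from 122426357 to 122461152 (GRCm38). Its level ran over 0, 2064 and 8366 CPM in the lowest, median and highest villus-tip square, against 0, 136 and 4063 CPM in the remaining squares. It was counted in 411 of 414 villus-tip squares and in 71.6% of the remaining ones, so the 2 sets overlap at their edges while their medians stand far apart. Summed over squares the level was 2188 CPM in villus-tip squares against 223 CPM, a log2 ratio of 3.29 (3.26 to 3.33), with 3.05 to 3.30 over the 4 parts. Against the enterocyte-rich squares it was 3.01 (2.97 to 3.06).

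Apoa4, an apolipoprotein of chylomicrons, was also higher. It lies on chromosome 9 from 46240844 to 46243458. The lowest, median and highest villus-tip squares held 4888, 21330 and 49604 CPM, against 0, 3506 and 40965 CPM in the remaining squares. Its log2 ratio was 2.17 over the remaining squares and 1.33 over the enterocyte-rich ones. Creb3l3, a transcription factor that drives Apoa4, stood at 759 CPM in villus-tip squares against 334 CPM, with log2 ratios of 1.19 and 0.67 in the same order. Matching 1 remaining square to each villus-tip square on the share of enterocyte genes gave Apoa4 a ratio of 1.62 and Slc28a2 2.95.

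Enpp3, an ecto-enzyme that splits extracellular nucleotides, stood at 2191 CPM in villus-tip squares, against 581 CPM in the remaining squares and 880 CPM in the enterocyte-rich squares. Egfr, the receptor for epidermal growth factor, was sparse: 207 of 414 villus-tip squares had a count, against 23.8% of the remaining squares. Its log2 ratio was 1.68 (1.52 to 1.84) over the remaining squares and 1.98 (1.78 to 2.18) over the enterocyte-rich ones, so it did not shrink when the comparison was narrowed. Klf4, a zinc-finger factor of differentiated epithelium, had a median of 455 CPM over villus-tip squares against 107 CPM, and log2 ratios of 1.68 and 1.14. Fos and Junb, subunits of the AP-1 transcription factor, had log2 ratios of 1.31 and 0.97 over the remaining squares and 0.98 and 0.73 over the enterocyte-rich ones. The smallest steps in the list over enterocyte-rich squares were those of Xdh, an enzyme of purine breakdown, and Cdh1 (E-cadherin). Xdh was at 0.25, with -0.02 in 1 of the 4 parts, and Cdh1 at 0.51.

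**Figure D2:**
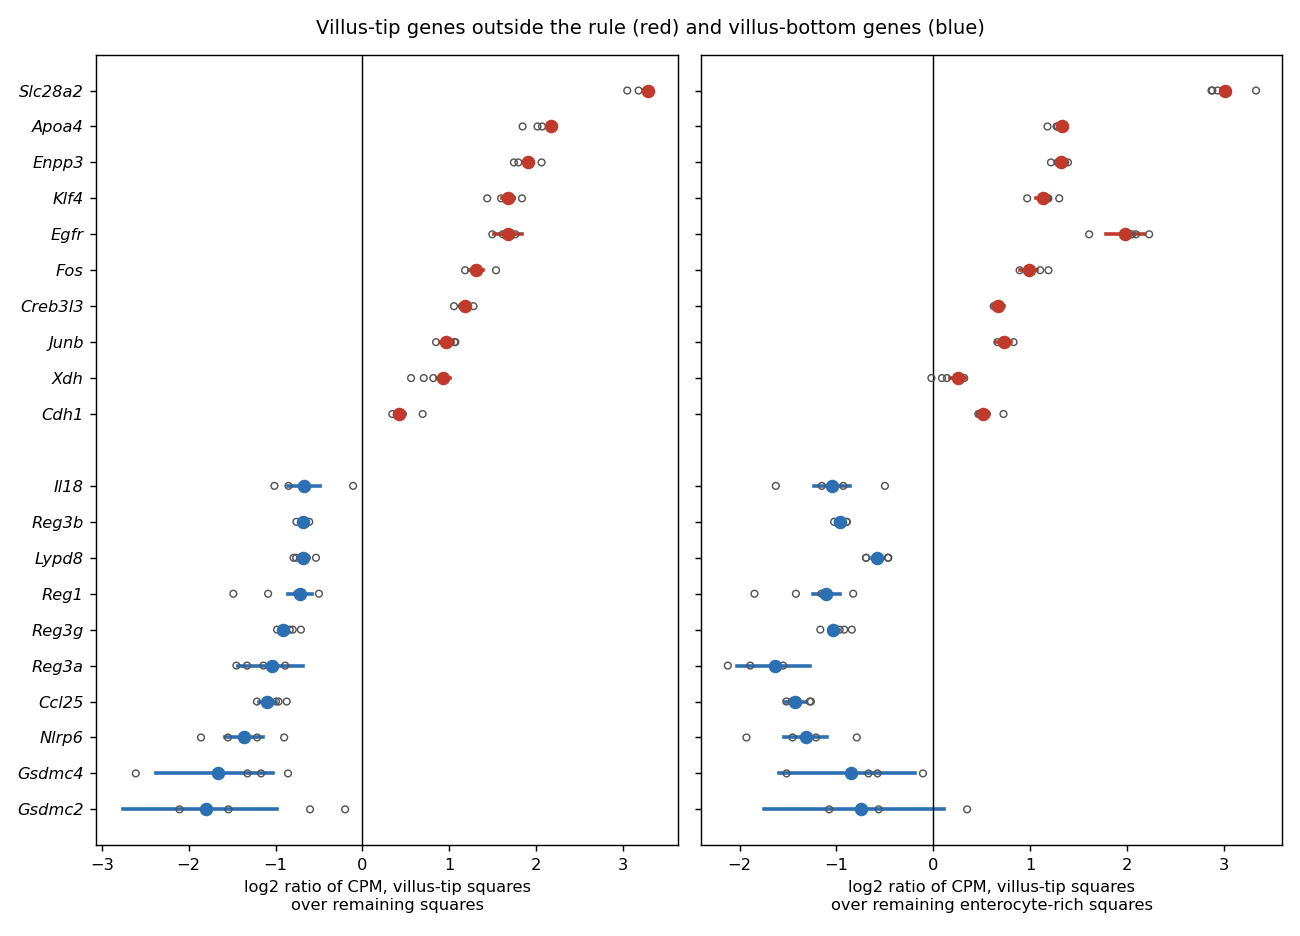
Log2 ratio of CPM of villus-tip squares over remaining squares (left) and over remaining enterocyte-rich squares (right), section labelled Dpf2 knockout; large points are all squares summed, bars are 95% counting intervals and open circles are the 4 position parts. Each of the 10 villus-tip genes (red) lies above 0 and each of the 10 villus-bottom genes (blue) below 0 when all squares are summed.

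A list of 10 genes of the lower villus went the other way. All 10 were lower in villus-tip squares in both comparisons. Their median log2 ratio was -0.98 over remaining squares, with 5 at least 2-fold lower beside 20.3% of all genes. Over the enterocyte-rich squares it was -1.04, with 6 at least 2-fold lower beside 3.87% of all genes. The enterocyte-rich squares themselves leaned towards these lectins. They held 218 (52.7%) of the 414 squares richest in Reg1, Reg3b and Reg3g. Within 15 units of such a square lay 37.1% of them, against 22.8% of the remaining squares. Reg3b, an antimicrobial lectin, had a median of 6288 CPM over villus-tip squares against 11979 CPM over enterocyte-rich squares, and a log2 ratio of -0.96 (-0.98 to -0.94). Reg3a, at -1.64, Reg1, at -1.10, and Reg3g, at -1.03, are lectins of the same locus whose similar sequences could share reads.

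Nlrp6, an inflammasome sensor of the epithelium, was counted in 132 of 414 villus-tip squares against 65.5% of enterocyte-rich squares, and its log2 ratio was -1.32 (-1.54 to -1.10). Ccl25, a chemokine that draws T cells to the small intestine, was at 186 CPM against 499 CPM, a log2 ratio of -1.42. Il18, the cytokine that inflammasomes release, was at 57.7 CPM against 119 CPM, a log2 ratio of -1.04. Of the 414 squares richest in Reg1, Reg3b and Reg3g together, 0 were villus-tip squares, which make up 5% of all kept squares. In the section labelled wild type, 56 of the 246 squares richest in these lectins (22.8%) were squares chosen by the rule. Gsdmc2, a gasdermin, rested on 12 counts in villus-tip squares, and its log2 ratio of -0.75 over enterocyte-rich squares (-1.75 to 0.11) ran from -1.07 to 0.35 over the 4 parts.

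**Figure D3:**
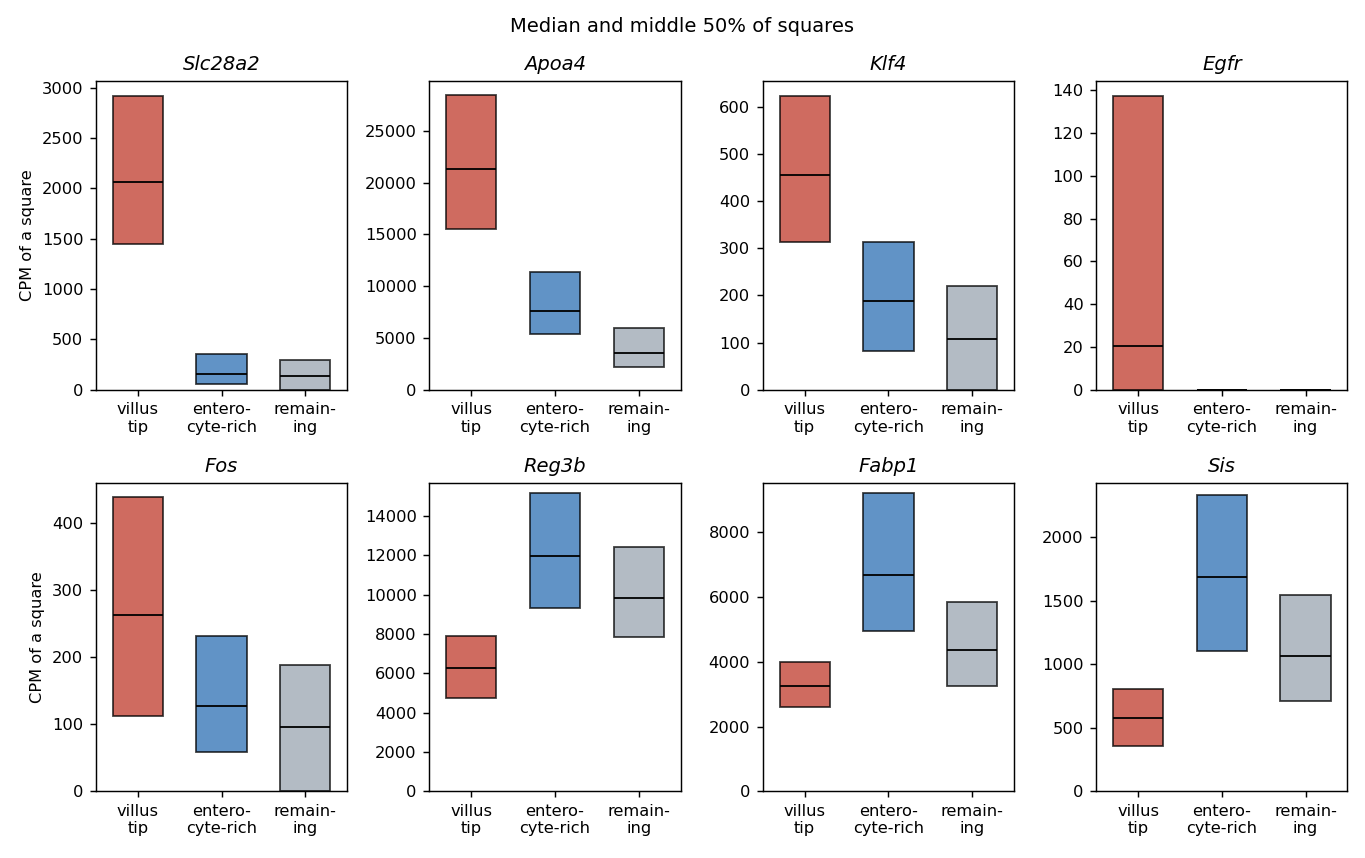
CPM per square for 8 genes, section labelled Dpf2 knockout: box is the middle 50% of squares and the line the median, for villus-tip, remaining enterocyte-rich and remaining squares from left to right. The medians of Slc28a2, Apoa4, Klf4 and Fos are highest in villus-tip squares, and those of Reg3b, Fabp1 and Sis are lowest there. Egfr has a median above 0 only in villus-tip squares, and barely so, since squares with and without a count of it were equal in number.

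Distance from the nearest villus-tip square ordered the other squares. Ada, a rule gene, stood at 8278 CPM in the villus-tip squares and at 2659, 1433, 1005, 769 and 636.5 CPM at distances of 1, 2, 3 to 4, 5 to 8 and 9 or more squares. Slc28a2, which the rule did not use, followed with 2188, 663, 325, 211, 157 and 122 CPM, and Klf4 with 480, 300, 226, 162, 111 and 97.5 CPM. Each of these was lower at every step outward. Cldn4 stood at 184 CPM in the villus-tip squares and 48.9 CPM at a distance of 1 square, and Atf3 at 49.4 and 15.6 CPM.

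The genes of the lower villus and crypt that were followed were lowest in the villus-tip squares, but not all kept rising outward. Nlrp6 stood at 41.8, 76.5, 84.5, 103, 115 and 129 CPM over the same steps, and Olfm4, a crypt stem-cell gene, at 152, 211, 232, 270, 406 and 404 CPM. Reg3b stood at 6741, 9808, 11046, 11779, 10297 and 10806 CPM. It was thus highest at 3 to 4 squares, as was Reg3g, at 2474 CPM there against 1198 CPM in the villus-tip squares. The smooth-muscle actin Acta2 was at 119 CPM in villus-tip squares and 656 CPM at 9 or more squares. Slc2a2, the basolateral glucose transporter, was lowest at the tip, with 189 CPM, and highest 2 squares away, with 346 CPM. Slc5a1, a glucose transporter of the brush border, was also highest 2 squares away, at 4327 CPM, against 3464 CPM in the villus-tip squares.

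**Figure D4:**
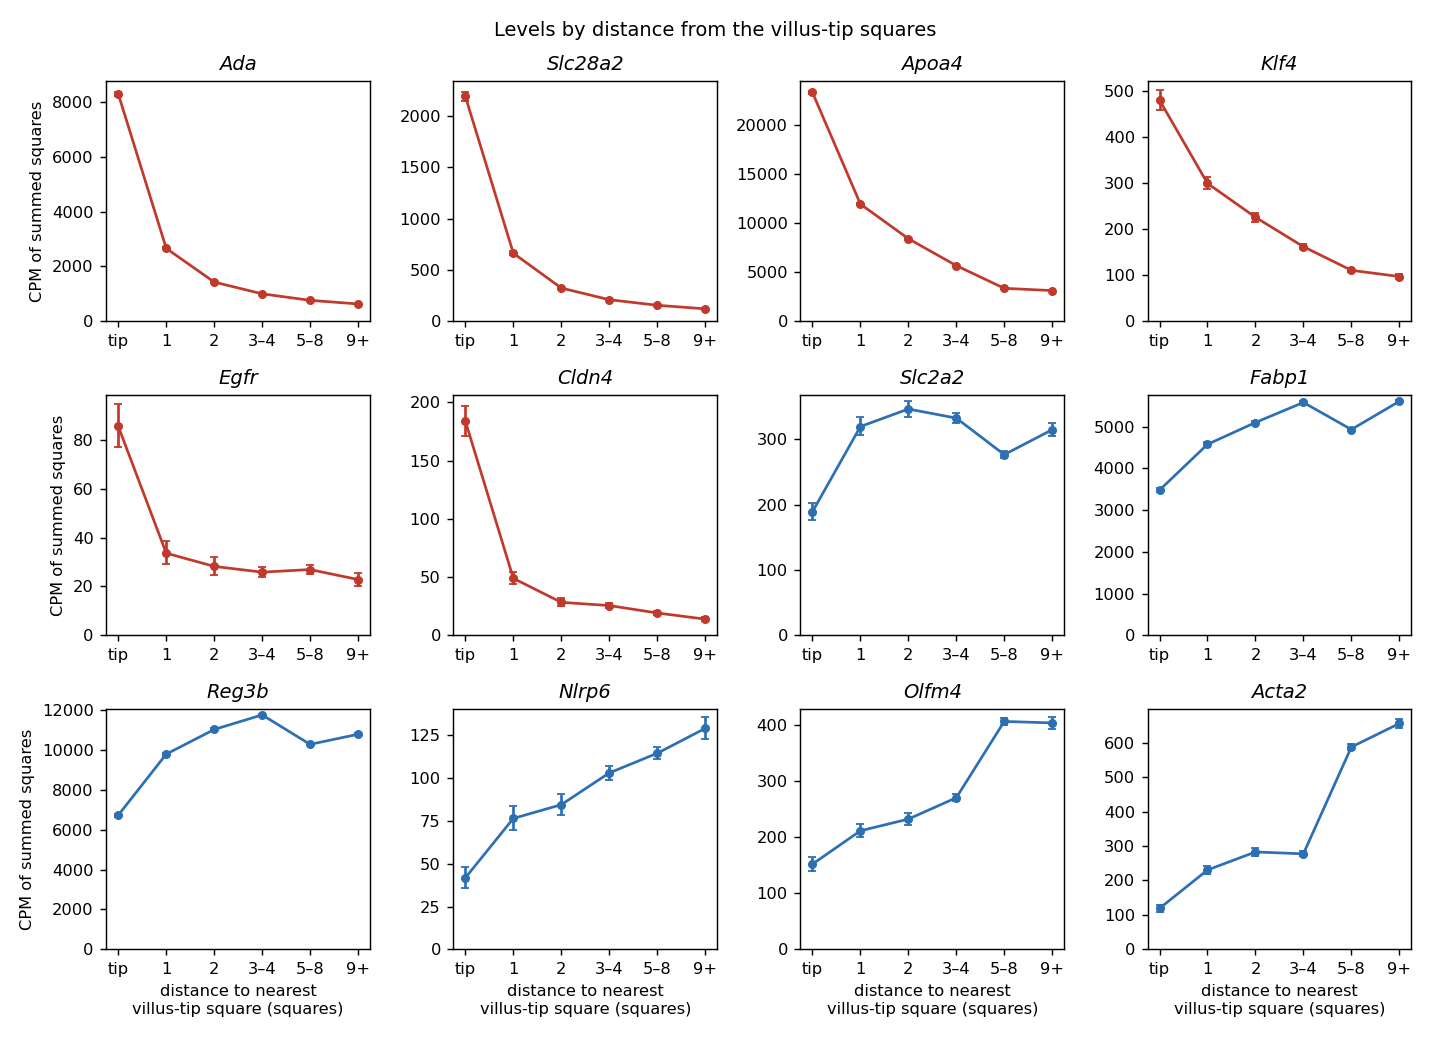
CPM of summed squares (y axes, linear, from 0) by distance to the nearest villus-tip square in squares (x axes), section labelled Dpf2 knockout; bars are 95% counting intervals. Ada, Slc28a2, Apoa4, Klf4, Egfr and Cldn4 (red) are highest at the tip, and the 6 genes in blue are lowest there.

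Across all 13149 genes, leaving out the rule genes, 320 were at least 2-fold higher in villus-tip squares than in remaining squares and 2673 (20.3%) at least 2-fold lower. The median gene was lower, at a log2 ratio of -0.50. With the median gene set to 0 instead, 1032 genes were at least 2-fold higher and 857 at least 2-fold lower. Against enterocyte-rich squares the split was 249 higher (1.89%) and 509 lower (3.87%), or 388 and 315 with the median gene, at -0.15, set to 0. That shift turns the sign of several list medians, among them those of p53 targets (-0.28, then 0.22) and nutrient transporters (-0.11, then 0.40) over remaining squares. Of the 249, 214 were higher in each of the 4 parts, and of the 509, 210 were lower in each.

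The list for purine handling holds 18 genes besides the rule genes Ada and Nt5e. Over enterocyte-rich squares, 17 of them had a value, with a median log2 ratio of 0.05. There 3 were at least 2-fold higher, beside 1.89% of all genes, and 1 at least 2-fold lower, beside 3.87%. The 3 were Slc28a2 and Enpp3, both also on the villus-tip list, and Uox, a urate oxidase with 2 counts in villus-tip squares. Outside the list, Slc23a4, known in the rat as a nucleobase transporter, was counted in 340 of 414 villus-tip squares against 30.1% of enterocyte-rich squares. Its log2 ratio was 2.80 (2.67 to 2.93), from 254 CPM against 36.6 CPM. Adora2b, a receptor for adenosine, was lower, at 6.46 CPM against 19.1 CPM and a log2 ratio of -1.56 (-2.17 to -1.01).

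Immediate early and stress-response genes stood higher as a group. Of 17, 10 were at least 2-fold higher over remaining squares, beside 2.43% of all genes, and 9 over enterocyte-rich squares, beside 1.89%, where all 17 had ratios above 0 and the median log2 ratio was 1.02. Atf3, a stress-induced factor, was counted in 141 of 414 villus-tip squares against 8.44% of enterocyte-rich squares. It stood at 49.4 CPM against 7.03 CPM, a log2 ratio of 2.81 (2.51 to 3.11), with 2.60 to 3.78 over the 4 parts. Jun was at 181 CPM against 57.2 CPM, a log2 ratio of 1.66. The phosphatase gene Dusp1, which damps MAP kinase signals, had a ratio of 1.99, the growth-response factor Egr1 1.87, Fosb, with 19 counts in villus-tip squares, 2.11, Klf6 1.29 and Zfp36, which encodes a protein that speeds the decay of cytokine mRNAs, 1.11. Handling of tissue can also raise such genes, and its part was not tested.

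Growth factor genes that signal through Egfr were measured beside it. Hbegf, a ligand of the receptor, was at 47.8 CPM in villus-tip squares against 11.6 CPM in enterocyte-rich squares, a log2 ratio of 2.05 (1.78 to 2.31). The other ligands stood nearer to 0: Areg had a ratio of 0.20 and Tgfa 0.36. Of the BMP ligands, Bmp8b stood at a ratio of 2.73 and Bmp2 at 1.69. Bmp8b has a close copy, Bmp8a, at 1.63, with which it may share reads. Smad7, an inhibitor induced by these signals, was at 0.90. The 11 genes of the BMP response list had a median of 0.20, with 2 at least 2-fold higher beside 1.89% of all genes.

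Junction and adhesion genes were higher as a group by a modest step. Of 23, 20 had ratios above 0 over enterocyte-rich squares, with a median log2 ratio of 0.51. Cldn4, a claudin of tight junctions, had the highest ratio of the list: 273 of 414 villus-tip squares had a count against 23.1% of enterocyte-rich squares, and the level was 184 CPM against 22.4 CPM, a log2 ratio of 3.03 (2.87 to 3.19). Cldn23 followed at 1.82 and Ceacam1, an adhesion molecule of the cell surface, at 0.99. Outside that list, Lama3, a laminin chain, had a log2 ratio of 2.28 and Itgb6, an integrin chain, 2.14.

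Other genes among the highest were Gprc5a, an orphan receptor induced by retinoic acid, and Clca4a, of a family of chloride channel accessory proteins. Gprc5a was at 183 CPM in villus-tip squares against 24.5 CPM in enterocyte-rich squares, a log2 ratio of 2.90. Clca4a was counted in every villus-tip square, at 5164 CPM against 787 CPM, a log2 ratio of 2.71, and it may share reads with its close copy Clca4b. Ido1, which starts the breakdown of tryptophan, had a ratio of 1.77, Smox, a spermine oxidase, 2.15, Slc34a2, a phosphate transporter, 1.54, and Prdm1, a repressor of transcription, 1.68. Hnf4a, a master factor of enterocytes, was at 252 CPM against 136 CPM, a ratio of 0.89.

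The promoter of Cldn4 is shown because Cldn4 had the highest ratio over enterocyte-rich squares of the named genes outside the rule, and because genes of AP-1 subunits were higher in the same squares. The sequence is from RefSeq (GRCm38.p6), at chr5:134946885-134947184 on the minus strand, and capitals mark matches to the AP-1 motif TGANTCA.

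Cldn4: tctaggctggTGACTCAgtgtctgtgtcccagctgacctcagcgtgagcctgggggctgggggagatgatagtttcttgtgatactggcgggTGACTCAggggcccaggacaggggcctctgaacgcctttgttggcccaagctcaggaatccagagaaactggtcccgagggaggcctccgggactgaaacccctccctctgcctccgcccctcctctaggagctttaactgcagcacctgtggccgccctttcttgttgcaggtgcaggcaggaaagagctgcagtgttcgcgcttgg

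The motif was searched on both strands in windows of 250 bases before to 50 after each start, for genes with a single entry in the table. Of 151 such genes among the 249 higher, 13 (8.61%) held it, against 18 of 287 (6.27%) among the 509 lower, 4.90% of the genes counted and 7.81% of all promoters in the table. The CRE motif TGACGTCA was in 6 promoters (3.97%) of the higher genes and 4 (1.39%) of the lower genes. It was in 3.44% of those of genes counted and 1.79% of all. The HNF4 motif CAAAGTCCA was in 0 of 151, against 1.74% of those of the lower genes, 0.491% of those of genes counted and 0.475% of all. These higher and lower genes are those over enterocyte-rich squares. Over remaining squares the order turned for CRE, at 3.17% of higher and 3.78% of lower genes. It also turned for HNF4, at 1.59% (3 of 189) and 0.398%. For AP-1 it held, at 9.52% and 5.04%. Of 21 villus-tip genes looked up singly, Cldn4 held AP-1 matches, Dusp1 a CRE match, and the rest, Slc28a2, Apoa4 and Egfr among them, none of the 3 motifs in this window. The motifs were chosen after the data were seen, and a match is a description of letters, not of a bound site.

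Of 22 genes for lipid absorption, 17 had ratios above 0 over remaining squares, with a median log2 ratio of 0.43. Over enterocyte-rich squares 12 had ratios above 0, with a median of 0.13, beside an all-gene median of -0.15. Apoc3, an apolipoprotein, was at 1.52, Apob, the scaffold of chylomicrons, at 1.40 and Apoa1 at 1.12, and over enterocyte-rich squares these stood at 0.84, 0.86 and 0.51. Fabp1, the liver-type fatty acid binding protein, went the other way, at 3480 CPM in villus-tip squares against 7640 CPM in enterocyte-rich squares, a ratio of -1.13. Fabp1, Apob, Apoa1, Sis and Slc5a1 belong to the enterocyte list that picked the enterocyte-rich squares, so their ratios over those squares are shifted by the choice. The median share of that list was 4.10% in villus-tip squares and 4.71% in enterocyte-rich squares. With 1 remaining square matched to each villus-tip square on that share, Fabp1 stood at -0.94, Apob at 0.96 and Apoa1 at 0.66.

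Several genes for sugar handling were lower in villus-tip squares than in enterocyte-rich squares. Sis, the brush-border sucrase-isomaltase, had a median of 577 CPM over villus-tip squares against 1688 CPM over enterocyte-rich squares, a log2 ratio of -1.54, and -1.33 with matched squares. Slc2a2 was at -1.34 (-1.12 matched), Slc2a5, the fructose transporter, at -1.02, and Slc5a4b, of the family of sodium-glucose transporters, at -2.01. Slc5a1, the main sodium-glucose transporter, was at -0.72 (-0.57 matched). Over remaining squares Slc5a1 stood at -0.11, Slc2a2 at -0.70 and Sis at -1.02, beside an all-gene median of -0.50. All 9 genes of the list for fructose use and gluconeogenesis had ratios below 0 over enterocyte-rich squares, with a median of -1.01 beside -0.15 for all genes, and 5 were at least 2-fold lower, beside 3.87% of all genes. Over remaining squares the list median was -0.65, with 2 at least 2-fold lower beside 20.3% of all genes, while the summed level of the list was 2598 to 3210 CPM over the 4 parts of the villus tip against 2419 to 2938 CPM in the remaining squares. Khk, which starts fructose breakdown, was at 188 CPM in villus-tip squares against 393 CPM in enterocyte-rich squares, a ratio of -1.06, and Fbp1, a gluconeogenic enzyme, had 10 counts in villus-tip squares and a ratio of -1.99 (-3.07 to -1.08).

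Amino acid and peptide transporters were mixed. Slc7a8, a basolateral exchanger, was at 134 CPM in villus-tip squares against 359 CPM in enterocyte-rich squares, a log2 ratio of -1.42, and Slc6a20a, a proline transporter, at -1.16. Slc6a19, the main neutral amino acid transporter of the brush border, was at 0.34, and Slc15a1, the peptide transporter, at 0.09. Slc6a19 and Slc15a1 also belong to the enterocyte list that picked the enterocyte-rich squares, so their ratios over those squares are shifted by the choice. Of the 12 amino acid and peptide transporters of the list, 2 were at least 2-fold lower over enterocyte-rich squares, beside 3.87% of all genes, and 0 at least 2-fold higher. Over remaining squares, 1 was at least 2-fold lower and 1 at least 2-fold higher, and 7 of the 12 had ratios above 0.

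Genes for oxidative phosphorylation were lower throughout. All 17 measured had ratios below 0 in both comparisons, where the all-gene median was also below 0, at -0.50 over remaining and -0.15 over enterocyte-rich squares. Over enterocyte-rich squares the list had a median log2 ratio of -0.61, with none at least 2-fold lower. Cox4i1, a subunit of cytochrome oxidase, was at 1031 CPM against 1578 CPM, a ratio of -0.61, and Ndufs1, of complex I, at -0.79. Over remaining squares the median was -0.59, which is -0.09 relative to the median gene. Of 19 genes for fatty acid oxidation, 18 had ratios below 0 over enterocyte-rich squares, and the median was -0.59, beside -0.15 for all genes. Of 9 retinoid genes with a value, 2 were at least 2-fold lower over enterocyte-rich squares, beside 3.87% of all genes, and the median was -0.39. The 2 were Rdh7, a retinol dehydrogenase family gene, at -1.95, and Aldh1a1, which makes retinoic acid, at -1.57. Over remaining squares the retinoid median was -0.07. Ugt2b5 and Cyp2c66, enzymes that clear foreign compounds, were at -1.64 and -1.76. The clock-output factor Dbp was at -1.63.

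**Figure D5:**
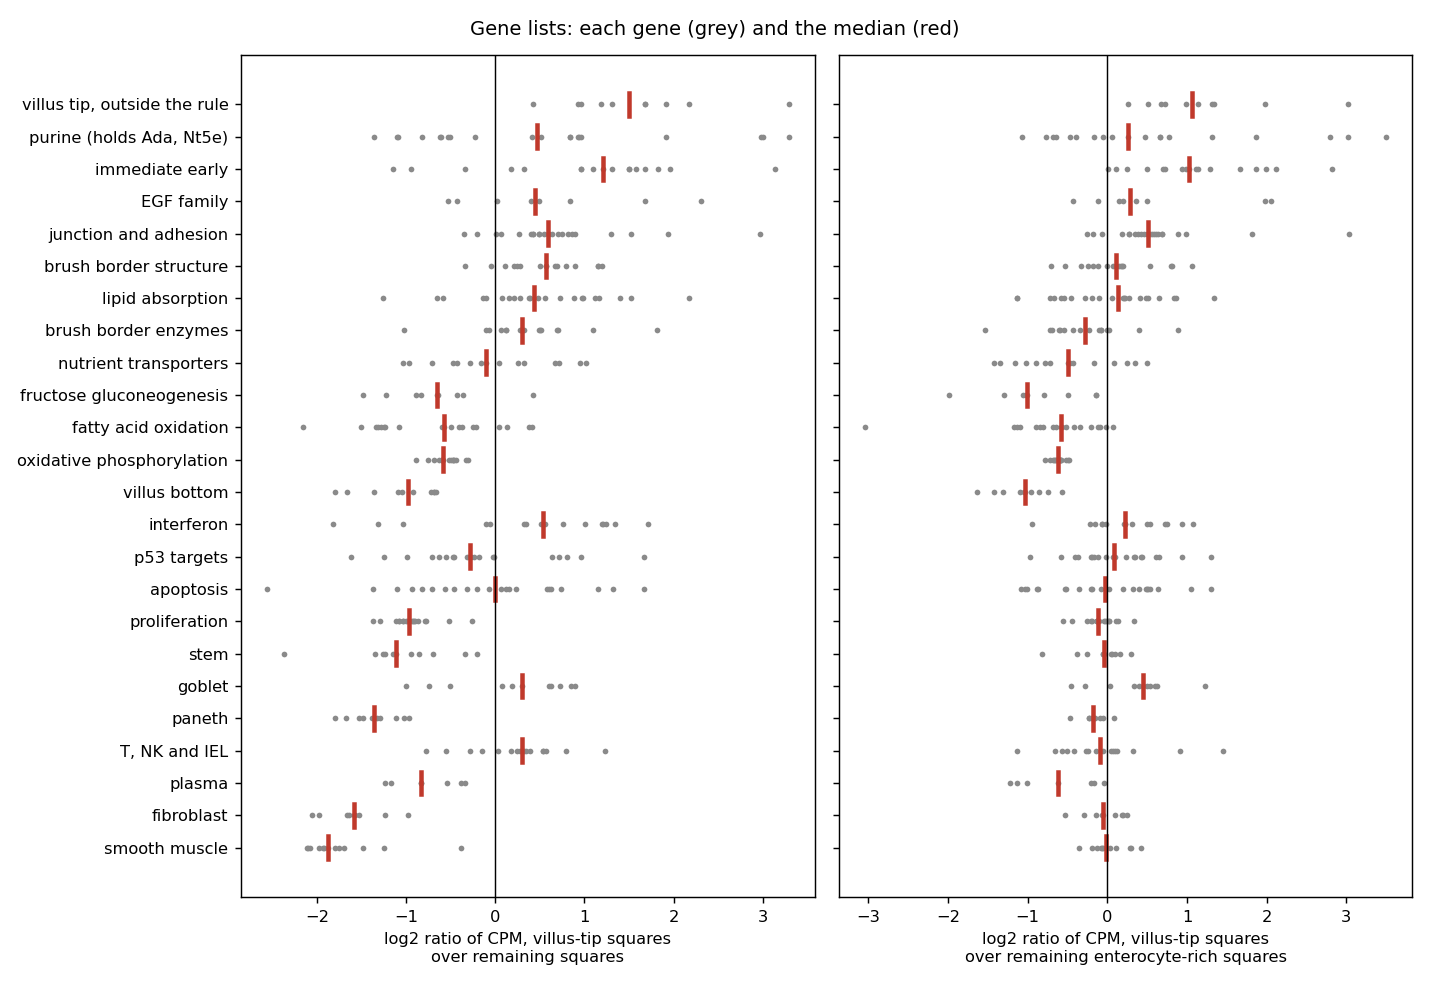
Log2 ratio of CPM of villus-tip squares over remaining (left) and over remaining enterocyte-rich squares (right) for 24 gene lists, section labelled Dpf2 knockout; each grey point is 1 gene with 20 or more counts and each red bar a list median. Villus-tip and immediate early lists lie highest, villus-bottom and fructose lists lowest on the right, and muscle and fibroblast lists lie near 0 only on the right.

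Gene lists for radiation response and cell death had medians near that of all genes, while the summed level of p53 targets was higher. The median of 22 apoptosis genes was -0.03 over enterocyte-rich squares and that of 20 p53 target genes 0.08, beside -0.15 for all genes. Of the p53 targets, 11 had ratios above 0 and 9 below. Their summed level over the position parts was 1358 to 1437 CPM in villus-tip squares against 944 to 996 CPM in enterocyte-rich squares. The summed ranges of the apoptosis list overlapped, at 2479 to 2894 CPM and 2405 to 2624 CPM in the same order. A few members of these lists were higher. Pmaip1, which encodes the death-promoting protein NOXA and is a p53 target, was at 281 CPM in villus-tip squares against 114 CPM, a log2 ratio of 1.30. Casp8, the initiator caspase of death receptors, was at 1.05, and Cdkn1a, the p53 target that stops the cell cycle, at 307 CPM against 196 CPM, a ratio of 0.65. Among 16 interferon-response genes, 1 was at least 2-fold higher over enterocyte-rich squares, beside 1.89% of all genes. It was Isg15, at 243 CPM against 115 CPM and a ratio of 1.08. No unirradiated section was analysed, so none of these levels can be set against an unexposed tip.

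Markers of other cells show what else the villus-tip squares held. The 13 smooth-muscle genes had a median log2 ratio of -1.87 over remaining squares, the 9 fibroblast genes -1.58 and the 11 Paneth genes -1.36, and over enterocyte-rich squares these medians were -0.02, -0.06 and -0.18. Summed smooth-muscle markers ranged over the 4 parts at 955 to 1467 CPM in villus-tip squares against 929 to 1030 CPM in enterocyte-rich squares, so they were present at a low level in both. Proliferation genes, 20 in all, were at -0.97 over remaining and -0.12 over enterocyte-rich squares. In bulk squares, fewer cells of a type and less RNA per cell cannot be told apart.

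Goblet cell genes were higher by a small step. Of 11, 9 had ratios above 0 over enterocyte-rich squares, with a median of 0.45, and the summed level was 7648 to 11002 CPM over the 4 parts of the villus tip against 6553 to 8555 CPM. Zg16, a lectin of the mucus, was at 0.53 and Tff3, a trefoil peptide, at 0.60. The incretin Gip, of enteroendocrine cells, was at 188 CPM against 87.3 CPM, a ratio of 1.11 that ran from -0.09 to 1.61 over the 4 parts. Plasma cell genes were lower, all 7 below 0, where the all-gene median was -0.15. Igha, the heavy chain of IgA, was at 503 CPM against 1170 CPM, a ratio of -1.22 (-1.28 to -1.15). The part of these other cells in the ratios above was not tested.

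Across the 414 villus-tip squares, the share of Ada correlated with that of Slc28a2 (Spearman 0.55) and of Apoa4 (0.57), and inversely with that of Reg3b (-0.36). Its correlation with Krt20 (0.29) is shaped by the rule, which set a threshold on the sum of these genes. These are descriptions across squares of 1 library, where shares of 1 total are bound to each other, and carry no p-value. Within the enterocyte-rich squares the correlations with Ada were 0.64 for Slc28a2, 0.58 for Apoa4, -0.41 for Reg3b and 0.54 for Krt20.

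The same rule was applied to the section labelled wild type. It gave 246 of 4917 squares, but the threshold there was 555 CPM against 7756 CPM in the section labelled Dpf2 knockout, and a chosen square rested on a median of 5 rule-gene counts against 110. Only 1 square of the section labelled wild type reached the threshold of the section labelled knockout, and 97.6% of the kept squares labelled knockout passed that of the wild type. With 1 section per genotype, genotype and section cannot be told apart.

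Levels in the chosen squares are set side by side with that limit. Ada was at 8278 CPM in the section labelled Dpf2 knockout and 414 CPM in the section labelled wild type, Slc28a2 at 2188 and 211 CPM, Apoa4 at 23283 and 1494 CPM and Klf4 at 480 and 85.3 CPM. Egfr, at 85.4 and 88.4 CPM, and Fos, at 307 and 364 CPM, were closer, and Cldn4, at 184 and 297 CPM, was higher in the section labelled wild type. The 10 villus-tip genes had a median log2 ratio over remaining squares of 1.497 in the section labelled knockout and 1.40 in the section labelled wild type, with 7 and 5 at least 2-fold higher, beside 2.43% and 2.33% of all genes. Over the alternatives tried, the wild-type median ran from 0.77 to 1.64. The enterocyte-rich squares of the section labelled wild type were set by the median of its own chosen squares. That cut was 0.105%, against 4.10% in the section labelled knockout. Its 228 enterocyte-rich squares had a median share of 0.143%, so the 2 comparison sets are not alike. Over enterocyte-rich squares the villus-tip genes stood at 1.06 in the section labelled knockout and 0.99 in the section labelled wild type. In the latter, 5 were at least 2-fold higher beside 2.47% of all genes. The villus-bottom genes there stood at -1.04 and -0.23, with 6 and 0 at least 2-fold lower, beside 3.87% and 2.1% of all genes. Over remaining squares the villus-bottom genes had opposite signs, at -0.98 and 1.02. In the section labelled wild type, median distance to squares richest in proliferation genes was 22.4 units for chosen and for remaining squares. To Paneth-rich squares it was 51.0 units against 56.6, and to smooth-muscle squares 68.5 against 60. All 10 villus-tip genes had ratios above 0 in both sections.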

How the data were processed

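The authors deposited raw counts per gene and barcode with a position for each barcode, for 1 section per genotype. Spots under tissue were extracted with BSTMatrix and BSTViewer, per the labels' protocols, and the build is GRCm38, per the submitters' processing notes. Which aligner and counter were used, whether molecular identifiers were collapsed and whether strand was used, the labels and headers do not state, so near-identical and antisense genes are uncertain.

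Deposited counts were summed over squares of 10 position units, with at least 1000 counts, and then over sets of squares (Python 3.11.15, numpy 2.4.6, scipy 1.17.1, pandas 2.3.3, matplotlib 3.10.9). Ratios are log2 of CPM, with exact conditional binomial intervals at 95%. Genes with 200 or more counts entered the counts of genes 2-fold apart, and list members needed 20. No floor was set for the purine list without rule genes or for the amino acid and peptide transporters. Shares of all genes beside list counts are of genes with 200 or more counts. The code was tested on simulated data. Squares are not replicates, and no test was made. The 4 position parts split the section at the median x and each side at its median y.

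Genes named are the rule genes, Dpf2, all villus-tip and villus-bottom list genes, up to 5 members of each of 55 lists by ratio and 2 by level, the 20 highest and 20 lowest genes in each comparison with 1 sign in all 4 parts (predicted, ribosomal, immunoglobulin segment and haemoglobin genes left out), and the 15 most abundant. The members and lists were chosen with earlier results of these data known. Alternatives changed the share of squares taken, the grid, the depth, the score, the scaling, the filter and the comparison squares. The 2041 genes of chromosome X and 334 of chromosome Y hold 0 counts.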

Additional observations from a re-analysis of the deposited data

Results flagged for a closer look

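In 4 gene lists the median log2 ratio of the chosen squares had opposite signs in the sections labelled Dpf2 knockout and wild type. With 1 section each, the differences were not tested. Villus-bottom genes over remaining squares stood at -0.98 in the section labelled Dpf2 knockout and 1.02 in the section labelled wild type, where 8 of the 10 were measured. Brush-border enzymes over enterocyte-rich squares stood at -0.29 and 0.59 in the same order of sections. The enterocyte list that picked those squares holds brush-border enzymes such as Sis, so both values are shifted by the choice. Its cut was also unlike, at a share of 4.10% in the section labelled Dpf2 knockout and 0.105% in the section labelled wild type. Over remaining squares, p53 targets stood at -0.28 and 0.22, and oxidative phosphorylation genes at -0.59 and 0.22. In the section labelled Dpf2 knockout, with the median gene set to 0, p53 targets stood at 0.22 and oxidative phosphorylation genes at -0.09.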

How the results depend on the processing

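Of 184 summary values over 23 alternatives, 166 stayed close to the values reported, 18 moved and 0 reversed. Counts of genes have no sign and could not reverse, so the 0 bears only on medians and differences in distance. For these, close means inside the interval of the reported value. That interval was wide for the villus-tip median over remaining squares, at 0.93 to 2.17. For counts, close was also loose: 3979 genes lower over remaining squares, with 1 or more counts, passed as close to 2673. Of 3920 values of named genes, 1239 moved beyond counting error, and 0 of those at least 2-fold apart changed sign. The median ratio of villus-tip genes ranged over 1.21 to 2.0 over remaining squares and 0.91 to 1.21 over enterocyte-rich squares. That of villus-bottom genes ranged over -1.22 to -0.89 over enterocyte-rich squares. In the section labelled wild type the villus-tip median over remaining squares ranged over 0.77 to 1.64. Counts of genes depended on the choices, and the cause was not tested. Over enterocyte-rich squares, 1195 genes were 2-fold lower with the top 2.5% of squares, 187 with the top 10%, 315 with the median of ratios, 1056 with genes of 50 or more counts and 1140 with 1 or more. There, 388 were 2-fold higher with the median of ratios, 613 with 50 or more counts and 2046 with 1 or more. Over remaining squares, 1712 were lower with the top 10% and 857 with the median of ratios, and 1032 were higher with the median of ratios and 2012 with 1 or more counts. The difference in median distance to smooth muscle, 31.6 units, was 37.6 with the top 2.5%, 10.4 with squares of 20 units, 21.6 without Ada in the score, 22.8 with separate barcodes, 28.3 without position part 2 and 17.1 without position part 4. Taking the top 5% within each position part, chosen after seeing the data, gave 273 higher and 1888 lower over remaining squares, and a villus-tip median of 1.39. No paired analysis was possible because each genotype has 1 section and no test was made. Low counts limit Fbp1, Fosb and other sparse genes.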
